A study of Mus musculus with 6 samples.

Results

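Messenger RNA of 7 genes of the cation-chloride cotransporter and WNK kinase system was followed in mouse bone marrow cells grown in high potassium. The genes were Slc12a2, Slc12a4, Slc12a7, Slc12a9, Wnk1, Oxsr1 and Stk39, chosen by symbol from the 19162 genes of the deposited table, where each symbol has 1 row. The cells came from C57BL/6J mice and had spent 4 days in culture with GM-CSF at 40 ng/mL, which makes marrow progenitors divide and mature into myeloid cells. The series title names them BM-MDSCs, while the sample labels say only bone marrow cells. The 3 control libraries came from cells in this medium alone, and the 3 KCl libraries from cells with a further 34.7 mM KCl, so both groups share the GM-CSF. Replicates are numbered 1, 2 and 4 in each group. The labels do not say whether they came from separate mice or separate dishes, so a p-value here speaks to the spread among these libraries, and that spread may be technical. Osmolality goes up with the added salt too, and no culture with a different solute was analysed here.

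Cation-chloride cotransporters move chloride across the cell membrane together with sodium or potassium and, with them, set cell volume and chloride level. The sodium-potassium-chloride cotransporter NKCC1, encoded by Slc12a2, normally brings ions into the cell, whereas the potassium-chloride cotransporters, among them KCC1 and KCC4, encoded by Slc12a4 and Slc12a7, normally let them out. WNK kinases sense chloride and cell shrinkage and phosphorylate a pair of related kinases, SPAK (Stk39) and OSR1 (Oxsr1), which in turn switch NKCC1 on and the potassium-chloride cotransporters off. The system therefore acts largely through phosphorylation, which RNA sequencing does not measure.

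In KCl, mRNA of the outward carrier Slc12a7 rose, and mRNA of the inward carrier Slc12a2 and of the kinases Wnk1 and Stk39 fell. Of the 7 genes, 1 was higher and 3 were lower past an adjusted p of 0.05 in edgeR's quasi-likelihood test, and Slc12a4, Slc12a9 and Oxsr1 did not pass. Among all 13326 genes tested, 22.9% passed, 12.4% higher and 10.5% lower in KCl. The libraries of the 2 groups did not overlap for 5 of the 7 genes, against 38.5% of all genes tested. The median log2 fold change of the 7 was -0.12, against -0.0045 over all tested genes. These counts were not kept when control 4 and KCl 4 were both left out, which also leaves fewer libraries. Without both, 0 of the 7 passed in the same test and 3 had an unadjusted p under 0.05, against 0.458% and 29.8% of 13525 genes, while 6 of 7 kept their sign.

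The pair control 4 and KCl 4 tracked the other 4 libraries too closely to be independent of them. CPM (read counts on a common library size) was averaged over the pair and over the other 4 for the 8231 genes that average 300 counts or more. The log2 ratio of these averages had an SD of 0.0095 over genes. Counting noise by itself would give 0.044, and the 14 remaining pairs had SDs from 0.123 to 0.262. Among these, pairs of libraries from the same group also carry the group difference. Those of a control with a KCl library, as here, ran from 0.123 to 0.190. The averages were also close for the genes described here. For Wnk1 the pair averaged 364 CPM and the other 4 libraries 367, for Slc12a4 44.9 and 45.2, and for Slc12a9 20.6 in both. Among the 7 genes they lay farthest apart on the log2 scale for Stk39 (20.4 and 20.0) and Slc12a7 (39.2 and 39.9). P-values from all 6 libraries may therefore be too small. Values without the pair are given beside the calls of the 7 genes and of the WNK pathway list. Calls of cell type markers are given from all 6 libraries only. Library totals ran from 14118724 to 21694831 counts.

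All 8 pan-myeloid markers checked were present, led by the lysozyme gene Lyz2 at 4769 CPM or more in every library. The summed CPM of 7 dendritic cell markers, of which 5 fell, lay between 2381 and 3015 in control and between 1560 and 1934 in KCl. That of 5 eosinophil markers lay between 1975 and 2178 in control and between 881 and 1055 in KCl. Nearly all of it came from Epx and Prg2, which fell, while Siglecf (log2 difference 0.13), Ccr3 (0.28) and Il5ra (-0.33) did not pass. Monocyte markers (2 of 5 higher, Ly6c2 and Cd14) and macrophage markers (1 of 6 higher, Msr1) had non-overlapping sums that were higher in KCl. So did the pan-myeloid markers (4 of 8 higher), where 12.4% of all tested genes were higher and 38.5% did not overlap. The separation of each of these 3 sums depended on 1 gene. For the monocyte sum it was Ly6c2 (544 to 637 CPM in control, 831 to 1021 in KCl). For the macrophage sum it was Msr1 (97.3 to 136 and 171 to 230), and for the pan-myeloid sum Lyz2 (4769 to 5933 and 8742 to 11569). Members of these lists went both ways: log2 differences that did not pass were -0.94 for Fn1 and -0.06 for Ccr2 among the monocyte markers, -0.13 for Adgre1 and -0.05 for Mertk among the macrophage markers, and -0.18 for Csf2rb among the pan-myeloid markers. Sums of 7 neutrophil markers overlapped, from 9474.6 to 11364.5 CPM in control and from 11346.9 to 17417.3 in KCl, with 1 higher, Ltf. Basophil and mast cell sums overlapped too, with 1 of 5 markers lower, Mcpt8, where 10.5% of all tested genes were lower. The part of all these markers in the results on the cotransporters and kinases was not tested. In such bulk samples fewer cells of a type cannot be told apart from less RNA per cell. Red cell markers summed to at most 3.49 CPM in any library, with the band 3 gene Slc4a1 at 0 in 4 of them. The mitochondrial share of reads lay between 3.89% and 4.80% for the controls and between 3.26% and 3.61% for KCl.

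Slc12a7, which encodes KCC4, had 31.9, 32.0 and 33.2 CPM in control 1, 2 and 4, compared with 43.3, 52.5 and 45.2 CPM in KCl 1, 2 and 4. Every KCl library lay above every control library, and KCl 2 was the highest. The log2 fold change was 0.54 ± 0.08 (SE, n = 3 per group), a level 1.45 times that in control, with adjusted p = 0.00820. It was 0.58 ± 0.12 without replicate 4, where the adjusted p was 0.0821.

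Slc12a4, which encodes KCC1, the form known from red cells and found in most tissues, had 50.2, 47.8 and 41.0 CPM in the controls, compared with 38.3, 44.3 and 48.8 CPM in KCl. The groups overlapped, and same-numbered libraries, which are not known to be pairs, differed in opposite directions. KCl minus control was -0.39 and -0.11 on the log2 scale for numbers 1 and 2, and 0.25 for number 4. The fitted log2 fold change was -0.08 ± 0.12 with adjusted p = 0.678, and -0.25 ± 0.11 with adjusted p = 0.197 without replicate 4. An antisense gene of the annotation, Gm16156, overlaps an exon of Slc12a4 and has no entry among the genes measured. Whether reads were counted by strand is not known, so reads from Gm16156 may be included in those of Slc12a4.

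Slc12a2, which encodes NKCC1, was scarce. Its counts were 121, 122 and 78 in control and 82, 74 and 80 in KCl, which is 5.76, 5.59 and 5.51 CPM against 4.31, 4.31 and 4.43 CPM. Every KCl library lay below every control library. The log2 fold change was -0.37 ± 0.09, 22.6% lower, with adjusted p = 0.0298. The spread between libraries was smaller than the average spread from counting: the SD was 0.130 CPM in control and 0.0668 in KCl, where counting noise alone gives 0.551 and 0.491. The fitted SE of 0.09 was likewise below the 0.12 that counting alone gives for 321 against 236 reads. The call was lost when any 1 of the 6 libraries was left out (adjusted p from 0.0575 to 0.125), in DESeq2 (adjusted p = 0.206) and without replicate 4 (-0.40 ± 0.18, adjusted p = 0.213).

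Slc12a9 encodes a distant relative of these carriers known as the cotransporter-interacting protein, whose own transport role is less settled. It had 15.5, 25.8 and 17.6 CPM in the controls, compared with 20.6, 20.7 and 23.6 CPM in KCl. Control 2 was higher than all 3 KCl libraries and the other controls were lower than all of them, so the groups overlapped. The log2 fold change was 0.13 ± 0.20 with adjusted p = 0.690. It was 0.39 (adjusted p = 0.0599) without control 2, -0.025 without control 1 and -0.0028 ± 0.26 without replicate 4.

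**Figure D1:**
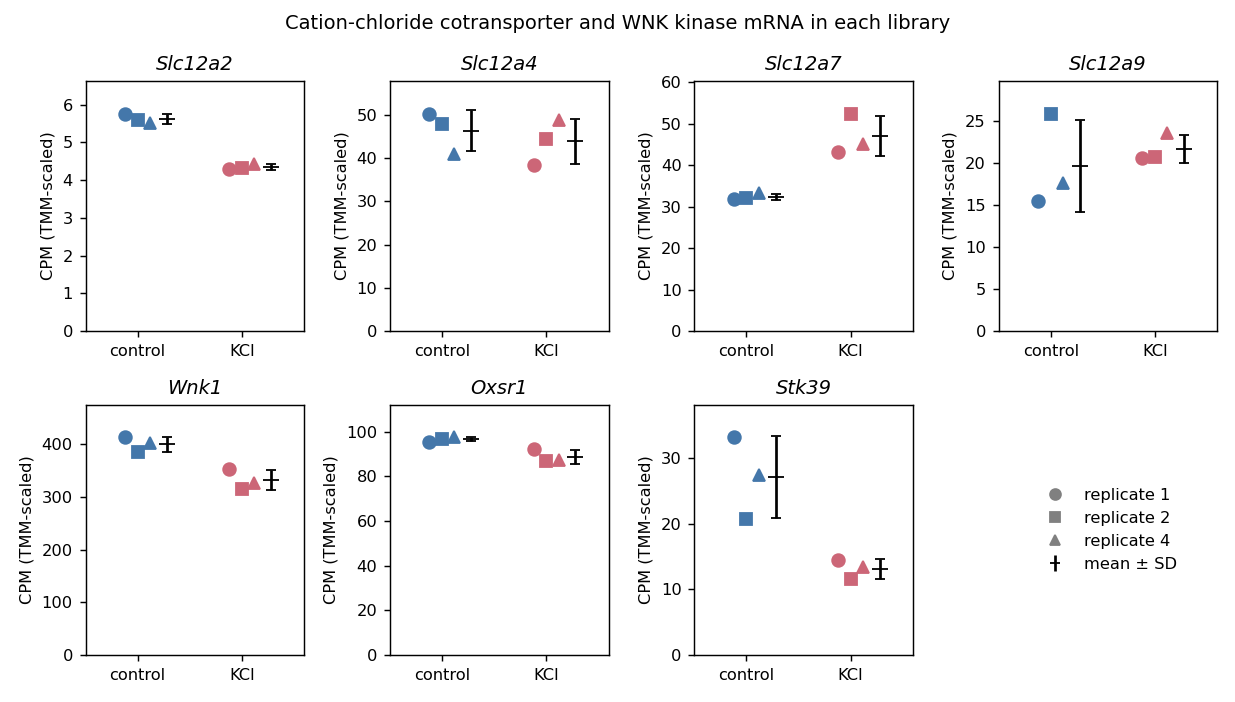
TMM-scaled CPM of each gene (y axis, starting at 0) in the control and KCl libraries (x axis), with 1 point per library, shaped by replicate, and the mean ± SD of 3 libraries in black. Control and KCl points do not overlap for Slc12a2, Slc12a7, Wnk1, Oxsr1 and Stk39 and overlap for Slc12a4 and Slc12a9.

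Wnk1, the most abundant of the 3 WNK kinase genes measured (Wnk1, Wnk2 and Wnk4), had 413, 386 and 402 CPM in the controls, compared with 353, 316 and 327 CPM in KCl. Every KCl library lay below every control library. The log2 fold change was -0.27 ± 0.06, or 17.1% lower, with adjusted p = 0.0228. The call was lost without control 1, control 4, KCl 2 or KCl 4 (adjusted p from 0.0581 to 0.0903) and without replicate 4 (-0.26 ± 0.09, adjusted p = 0.150). Counts are given as 1 value per gene, so the full-length kinase and its shorter forms are not separated.

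Of the pair of kinases that WNK phosphorylates, Stk39 fell and Oxsr1 did not pass. Stk39, which encodes SPAK, had 33.1, 20.7 and 27.4 CPM in the controls, compared with 14.5, 11.5 and 13.3 CPM in KCl. The controls varied among themselves by more than the KCl libraries, but the lowest control still lay above the highest KCl library. Its log2 fold change of -1.04 ± 0.19, a level 0.485 times that in control, had adjusted p = 0.0121. The difference between same-numbered libraries, which are not known to be pairs, was -1.19, -0.85 and -1.04 for numbers 1, 2 and 4. Without replicate 4 the log2 fold change was -1.05 ± 0.27 with adjusted p = 0.10025.

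Oxsr1, which encodes OSR1, had 95.6, 96.9 and 97.4 CPM in the controls, compared with 92.4, 86.8 and 87.1 CPM in KCl. The groups did not overlap, and the log2 difference of -0.12 ± 0.05 did not pass (adjusted p = 0.129, or 0.384 without replicate 4). Leaving out any 1 library gave no call for Oxsr1.

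**Figure D2:**
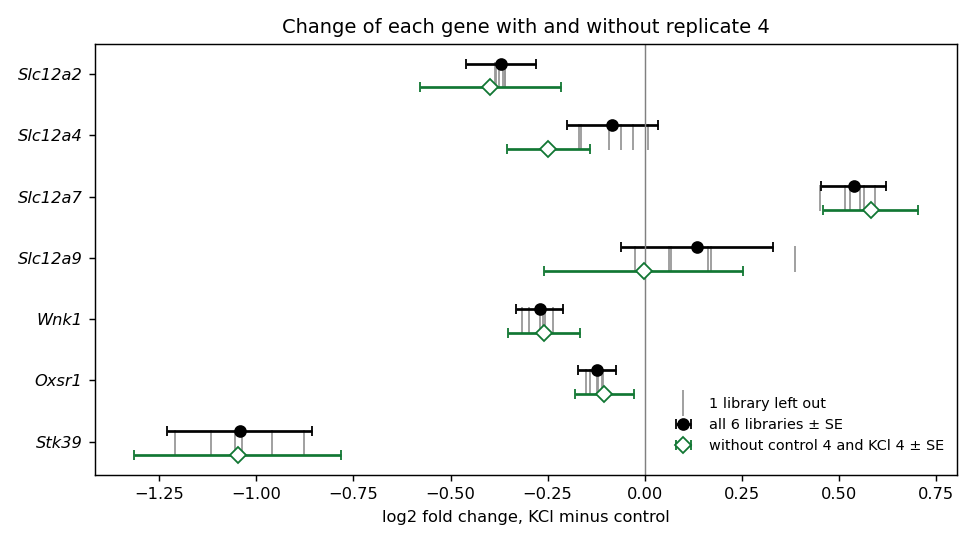
Log2 fold change, KCl minus control (x axis), of each gene (y axis) with all 6 libraries (black, ± SE), with each library left out in turn (grey ticks) and without control 4 and KCl 4 (open green diamonds, ± SE). Stk39 at -1.04 and Slc12a7 at 0.54 lie farthest from 0, and the estimates of Slc12a9 and Slc12a4 cross 0 when libraries are left out.

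Since OSR1 and SPAK share their task, the ratio of the 2 mRNAs was taken within each library, where library scaling cancels. This ratio was chosen with earlier results of these data known. It rests on the same Stk39 counts as the call above and is not separate evidence. The log2 ratio of Oxsr1 to Stk39, on the deposited FPKM (fragments scaled to gene length and library size), was 1.80, 2.50 and 2.10 in control and 2.94, 3.18 and 2.98 in KCl. All KCl libraries had the higher ratio, and the means differed by 0.90 (exact 2-sided permutation test, p = 0.1, the smallest that 3 against 3 libraries allow). Without replicate 4 the difference was 0.92. Stk39 made up 22.3%, 15.1% and 18.9% of the summed FPKM of the pair in control and 11.5%, 9.92% and 11.2% in KCl. The sum itself was 18.5 ± 0.734 FPKM in control and 15.3 ± 0.946 in KCl (SD, n = 3 per group).

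The inward carrier was set against the outward carriers among the 7 genes in the same way, a ratio chosen after values were seen. The log2 ratio of Slc12a2 to the summed FPKM of Slc12a4 and Slc12a7 was -4.23, -4.24 and -4.15 in control and -4.63, -4.88 and -4.80 in KCl. The ratio was lower in all 3 KCl libraries, and the means differed by -0.56, or 0.677 times the control ratio (exact 2-sided permutation test, p = 0.1, the smallest possible). Without replicate 4 the difference was -0.52. Slc12a4 and Slc12a7 together came to 16.04 ± 0.914 FPKM in control and 18.1 ± 1.40 in KCl, with overlapping libraries (exact 2-sided permutation test, p = 0.2).

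Between these carriers, Slc12a7 took 37.3%, 38.6% and 43.3% of the summed FPKM in control and 51.5%, 52.6% and 46.5% in KCl. This share was also added after values were seen, and it rests on the same Slc12a7 counts as the call above. All KCl libraries had the larger Slc12a7 share (exact 2-sided permutation test, p = 0.1, the smallest possible), although control 4 and KCl 4 lay closest to each other.

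**Figure D3:**
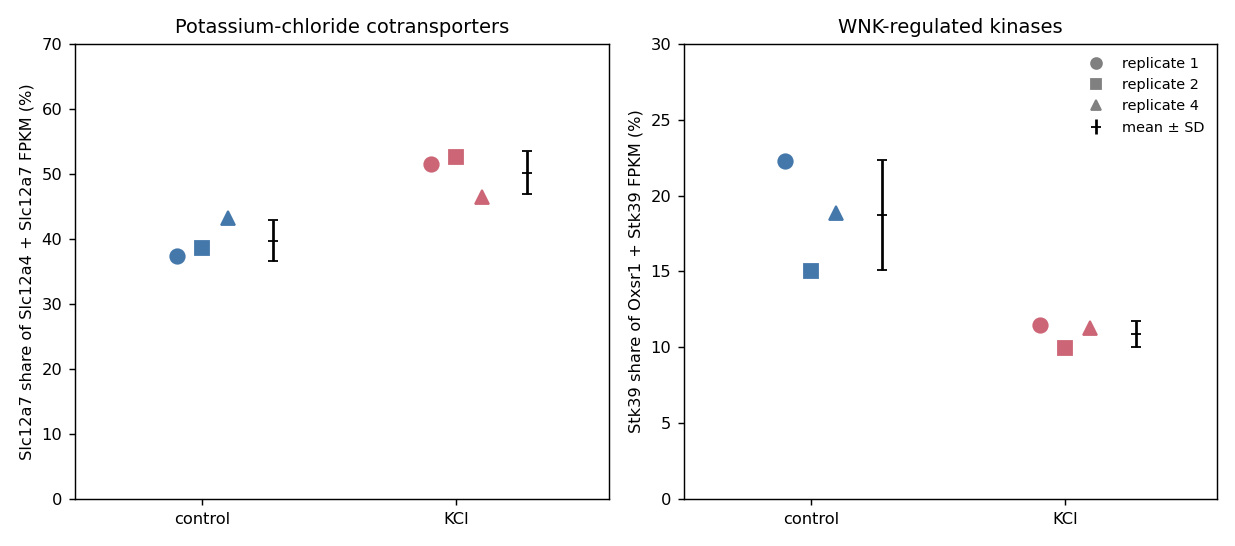
Left, share of Slc12a7 in the FPKM of Slc12a4 plus Slc12a7 (y axis, %) by group (x axis), from a mean of 39.7 in control to 50.2 in KCl. Right, share of Stk39 in the FPKM of Oxsr1 plus Stk39 (y axis, %) by group, from 18.7 to 10.9. Points are single libraries, shaped by replicate, with the mean ± SD of 3 in black.

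Levels between genes were compared per length. By deposited FPKM in control, Oxsr1 came highest among the genes described (15.03 ± 0.0993), followed by Wnk1 (9.89 ± 0.359), Slc12a4 (9.69 ± 1.04), Slc12a7 (6.35 ± 0.128), Slc12a9 (3.65 ± 1.01), Stk39 (3.49 ± 0.806) and Slc12a2 (0.867 ± 0.0231). The ranges of Wnk1 and Slc12a4 overlapped, as did those of Slc12a9 and Stk39. In KCl, Slc12a7 (9.07 ± 0.698 FPKM) came next to Slc12a4 (9.02 ± 1.11) and Wnk1 (8.08 ± 0.622), each overlapping its neighbour, and Stk39 (1.67 ± 0.226) lay below Slc12a9 (3.96 ± 0.373) without overlap.

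This order depends on the gene length behind the FPKM. The deposited values imply a length of 40754 bases for Wnk1, whereas its longest coding transcript in GENCODE M21 has 11330. For Slc12a7 the implied length was 5131 bases and the longest coding transcript 5142, and for Slc12a2 both were 6520. Divided by the longest coding transcript, Wnk1 had the highest level of the 7 genes, at 35.6 ± 1.29 FPKM in control and 29.1 ± 2.24 in KCl, above Oxsr1 at 20.9 ± 0.138 and 19.0 ± 1.01. On that scale Stk39 fell from 7.71 ± 1.78 to 3.69 ± 0.499 FPKM and made up 26.7% ± 4.68 and 16.2% ± 1.19 of the pair with Oxsr1. Fold changes within a gene do not depend on its length.

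In mm10 (GENCODE M21), Slc12a7 (ENSMUSG00000017756) lies on chromosome 13 from 73733094 to 73816754 on the plus strand. The others lie on the minus strand: Slc12a4 (ENSMUSG00000017765) on chromosome 8 from 105943590 to 105966097, Slc12a9 (ENSMUSG00000037344) on chromosome 5 from 137314558 to 137333597, and Wnk1 (ENSMUSG00000045962) on chromosome 6 from 119923969 to 120038672. Oxsr1 (ENSMUSG00000036737) spans 119238432 to 119322427 of chromosome 9, and Stk39 (ENSMUSG00000027030) 68210445 to 68472268 of chromosome 2. All are listed as protein-coding, and the Slc12a2 row carries the identifier ENSMUSG00000024597.

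Promoter sequence is shown for 3 genes with different results, Slc12a7 (higher in KCl), Wnk1 (lower) and Slc12a4 (not past the threshold). Each is the stretch from 250 to 51 bases before the RefSeq start (GRCm38.p6), outside annotated exons, 5′ to 3′ on the gene's strand. Capitals mark GC boxes (GGGCGG on either strand), motifs that bind Sp1-type factors.
Slc12a7, chr13:73763410-73763609: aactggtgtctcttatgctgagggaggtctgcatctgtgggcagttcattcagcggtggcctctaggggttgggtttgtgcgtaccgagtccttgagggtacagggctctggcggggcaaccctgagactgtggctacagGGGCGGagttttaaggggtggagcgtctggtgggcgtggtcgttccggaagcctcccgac
Wnk1, chr6:120038706-120038905: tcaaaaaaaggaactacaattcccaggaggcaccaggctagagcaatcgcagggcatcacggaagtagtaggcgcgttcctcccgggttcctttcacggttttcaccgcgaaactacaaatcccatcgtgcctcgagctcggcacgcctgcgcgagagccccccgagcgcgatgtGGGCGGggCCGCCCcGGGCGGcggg
Slc12a4, chr8:105966166-105966365: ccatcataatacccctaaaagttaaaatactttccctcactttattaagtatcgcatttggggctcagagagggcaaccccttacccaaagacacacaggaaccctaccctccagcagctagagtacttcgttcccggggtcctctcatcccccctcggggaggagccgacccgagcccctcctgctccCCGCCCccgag
The window of Wnk1 held 3 GC boxes, which do not overlap each other, and those of Slc12a7 and Slc12a4 held 1 each. At least 1 GC box occurs in 24.6% of 32851 promoter windows of this length. The core of the sites bound by NFAT factors, TGGAAA on either strand, was in none of these 3 windows nor in those of Slc12a9 and Oxsr1, and occurs in 15.8% of all. The Stk39 window, which overlaps an annotated exon and is not printed, held 1 such core and 4 GC boxes. Unlike the windows upstream of a coding transcript, it begins 37 bases past the GENCODE gene start, where the first coding transcript also starts. GC content was 61.0%, 63.5% and 56.5% in the windows of Slc12a7, Wnk1 and Slc12a4. Slc12a7 has 2 RefSeq starts close together, of which the first was used. Its window begins 30316 bases inside the GENCODE gene, whose start is that of a processed transcript, not a coding one, and ends 88 bases before the first GENCODE coding transcript.

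Among other members of both gene families, Slc12a5 (KCC2, the neuronal form) had 17 to 37 counts per library and a log2 difference of -0.52 that did not pass (adjusted p = 0.124). The kidney carriers Slc12a1 and Slc12a3 were too low to test, at 0 to 6 counts per library for Slc12a1, and at 11, 9 and 3 in control and 0, 0 and 3 in KCl for Slc12a3. Slc12a8 had at most 4 counts in a library. Wnk2 had 10 to 25 counts per library (-0.46 ± 0.26, adjusted p = 0.288) and Wnk4 had 11, 5 and 5 in control and 0, 3 and 2 in KCl, too few to test. Wnk1 accounted for 98.6% or more of the FPKM of Wnk1, Wnk2 and Wnk4 in each library. Wnk3 had no entry under that symbol among the 19162 genes, so this share leaves it out.

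A list of 29 genes that belong to, regulate or work with the WNK pathway, Slc12a8, Wnk2, Wnk3 and Wnk4 included, held 26 tested genes, of which 4 were higher, 1 was lower and 21 did not pass. Over all tested genes 12.4% were higher and 10.5% lower. The median log2 fold change of the list was 0.08. The genes that rose were the kinase gene Sgk1, the sorting receptor gene Sorl1, the inward-rectifier potassium channel gene Kcnj10 and Klhl2, an adaptor that brings WNK kinases to the CUL3 ubiquitin ligase. Sgk1, a kinase known to be induced by osmotic and hormonal signals, went from 56.8, 71.9 and 67.9 CPM in the controls to 111, 137 and 115 in KCl (0.88 ± 0.12, adjusted p = 0.00596, or 0.0726 without replicate 4). Sorl1 rose by 0.58 ± 0.07 (adjusted p = 0.00523, or 0.0708 without replicate 4) and Kcnj10 by 2.51 ± 0.14 (adjusted p = 0.00155). Kcnj10 was the only gene of the list to pass without replicate 4 (2.69 ± 0.17, adjusted p = 0.0273). Its level was low, with 39, 43 and 36 counts in the controls and 230, 219 and 198 in KCl. With all 6 libraries its fitted SE of 0.141 was slightly below the 0.144 that counting alone gives. Klhl2 rose by 0.21 ± 0.06 (adjusted p = 0.0398), a call lost when any 1 library was left out (adjusted p from 0.0767 to 0.107), with RLE (0.0509) or upper-quartile scaling (0.0657), with no filter on low counts (0.0649), in DESeq2 (0.0552) and without replicate 4 (0.127).

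The gene that fell was Cab39l, which encodes a scaffold protein, MO25 beta, that activates SPAK and OSR1. It had 54.9, 53.3 and 53.6 CPM in the controls, compared with 39.8, 36.1 and 38.3 CPM in KCl. All KCl libraries lay below all control libraries, by a log2 fold change of -0.50 ± 0.06 with adjusted p = 0.00417, and of -0.51 ± 0.09 with adjusted p = 0.0753 without replicate 4. Its close relative Cab39 had 238, 237 and 248 CPM in the controls, compared with 237, 268 and 237 in KCl, with a log2 difference of 0.04 ± 0.06 (adjusted p = 0.728).

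**Figure D4:**
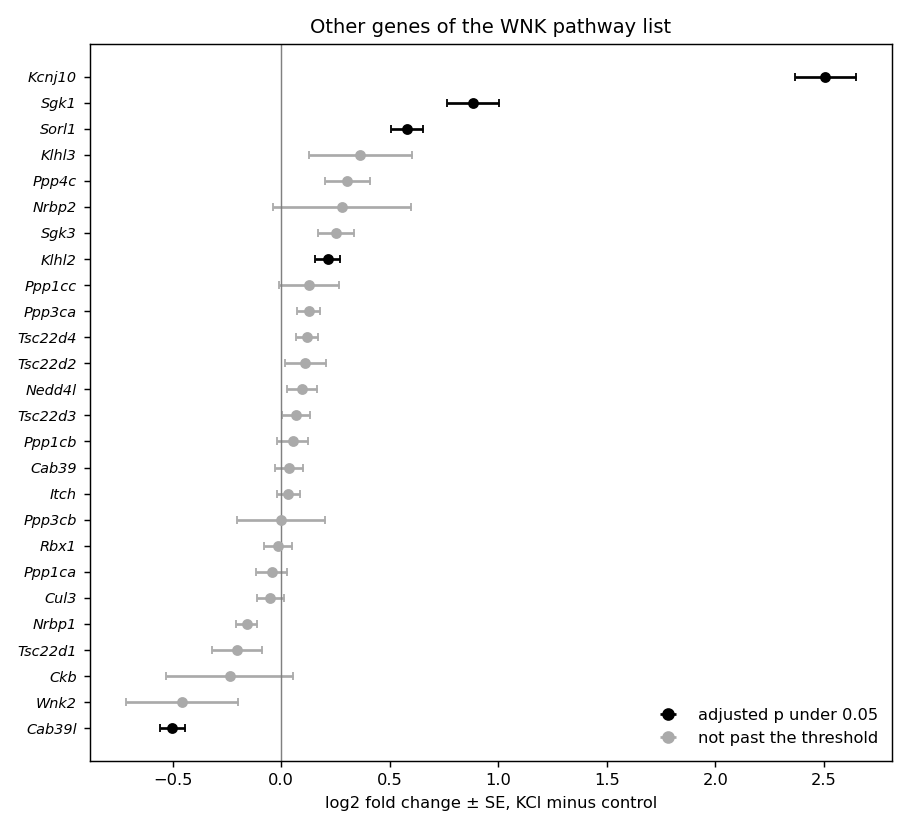
Log2 fold change ± SE, KCl minus control (x axis), of the 26 tested genes of the WNK pathway list (y axis), in black where the adjusted p was under 0.05. Kcnj10 at 2.51 and Sgk1 at 0.88 lie highest, and Cab39l at -0.50 lies lowest.

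Over the 6 libraries, the log2 CPM of Slc12a7 was most closely followed among 9280 genes by that of Tmtc3 (Pearson r = 0.9997), Fas and Dennd3 (0.999 for both), that of Wnk1 by Gphn, D2Wsu81e and Glod4 (0.999 for each), and that of Slc12a2 by Prg3, Il21r (0.998 for both) and Asns (0.997). These are descriptions over 6 libraries that share 1 group difference and are not independent, and 688, 494 and 646 genes had r above 0.95 with Slc12a7, Wnk1 and Slc12a2.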

How the data were processed

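Trizol was used to extract total RNA and an Illumina NovaSeq to sequence it, per the labels' protocols. The submitters' processing notes name HISAT2 2.0.4, StringTie 1.3.3b, edgeR and build mm10. How reads were counted, and whether by strand, is not given in the sources used here. The authors deposited whole-number read counts and FPKM values for 19162 genes in 6 libraries. The FPKM deposited by the authors equals the count divided by the library total and a length fixed per gene, to a relative deviation of 5e-05, for the 12489 genes with at least 10 counts in every library. Of the gene IDs, 19049 matched GENCODE M21. The counts went into the robust quasi-likelihood test of edgeR 4.0.16 (R 4.3.3), 2-sided, after filterByExpr (minimum count 10, minimum total 15) and TMM scaling. P-values were adjusted by Benjamini-Hochberg over 13326 genes, with a threshold of 0.05. Fold changes are on the log2 scale with control subtracted from KCl, and CPM are TMM-scaled. Ratios and shares used FPKM with no pseudocount. Alternatives were other scalings (RLE, upper quartile, library totals), other filters (none, or at least 5 CPM on average), a replicate block, omission of single libraries or of replicate 4, DESeq2 1.42.0, and limma-voom (limma 3.58.1). The ratio and share within Slc12a2, Slc12a4 and Slc12a7, rescaling to the longest coding transcript, and the alternatives for single genes of the pathway list, were added once the data had been seen. The 7 genes, all gene lists and the ratio of Oxsr1 to Stk39 were chosen with earlier results of these data known. Named genes were the 7, the other SLC12 and WNK genes, pathway list genes past the threshold (up to 6 per direction by smallest p), and the 3 genes averaging at least 10 CPM that correlated best with each of Slc12a2, Slc12a7 and Wnk1. Cab39 was named after its values were seen. An item of these lists, and results that need it, are not reported here.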

Additional observations from a re-analysis of the deposited data

How the results depend on the processing

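The 7 genes kept their direction in every setting run, except that Slc12a4 stood between -0.17 and 0.0074 and Slc12a9 between -0.025 and 0.39 when 1 library was left out, and Slc12a9 stood at -0.0028 without replicate 4. The cause was not tested. Slc12a7 and Stk39 passed in 14 of 15 settings, Wnk1 in 10 and Slc12a2 in 5 of 14, since a mean CPM of at least 5 removed Slc12a2. Without replicate 4, 62 of all genes passed, and 0 higher and 0 lower of the 7. Of the pathway list, 1 was higher and 0 lower. How far the smaller number of libraries bears on this was not tested. With 1 library left out, 1439 to 2851 of all genes passed, 1 of the 7 was higher in each case and 1 to 2 were lower, and 3 to 4 of the pathway list were higher. Upper-quartile scaling called 2 of the pathway list lower. The log2 ratio of Slc12a2 to Slc12a4 plus Slc12a7 ran from -0.63 to -0.51 and that of Oxsr1 to Stk39 from 0.74 to 1.08.

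With the replicate number as a block, 1678 of all genes passed, and Slc12a2 (adjusted p = 0.119) and Klhl2 (0.126) did not. Deviations from the group means correlated at 0.03, -0.03 and -0.90 across genes for replicates 1, 2 and 4. No library correlated best with its own number. Because control 4 and KCl 4 are not independent of the other 4 libraries, these correlations cannot tell whether the numbers pair the samples. The replicate block left both ratios at -0.56 and 0.90. Counting noise limits Slc12a2 most, with 74 to 122 reads per library.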

Other observations

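The gene length that the deposited FPKM imply exceeded the union of all annotated exons of GENCODE M21 for several genes of the system. For Wnk1 it was 40754 bases against an exon union of 22825 and for Stk39 7818 against 4955. For Slc12a7 it was 5131 bases, below the union of 12669. FPKM therefore set Wnk1 and Stk39 lower relative to Slc12a7 and Slc12a2 than a length of the longest coding transcript would, by factors of 3.60 for Wnk1 and 2.21 for Stk39. On the transcript scale Slc12a7 made up 34.2% ± 2.95 (SD, n = 3) of Slc12a4 plus Slc12a7 in control and 44.3% ± 3.20 in KCl. The difference in the log2 ratio of Slc12a2 to Slc12a4 plus Slc12a7 was -0.53 on that scale.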
